A study of Mus musculus with 24 samples.

Results

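MacLowKit+Sca1+ and MacLowKit-Sca1- leukaemia cells were compared, which are 9 of the 24 RNA-seq libraries of a mouse acute myeloid leukaemia. The 4 MacLowKit+Sca1+ and 5 MacLowKit-Sca1- libraries were picked by the sorted population their labels name, with no use of the expression values. They are written Kit+Sca1+ and Kit-Sca1- below. All 24 libraries, those of both groups included, were labelled AML cells with the genotype NRASG12V/Mll-AF9, an oncogenic RAS together with an MLL fusion oncogene, on an F1 background of FVB/n and C57/BL/6J. The cells came from leukaemic spleens and were sorted on the surface proteins Mac-1, Kit and Sca-1. The other libraries were 5 of MacLowKit+Sca1- cells (written Kit+Sca1-), 5 of MacHigh cells and 5 of unsorted cells. No label states that the replicates were different animals. The p-values therefore cover only the spread among these libraries, part or all of which may be technical.

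Kit is the receptor for stem cell factor and Sca-1 (gene Ly6a) is a surface protein of mouse blood stem and progenitor cells, so a Kit+Sca1+ gate is the usual starting point for isolating immature blood cells. Mac-1 is a pair of integrin chains, of which the alpha chain is encoded by Itgam, and is carried by neutrophils, monocytes and many macrophages. The spleen also holds cells that are not leukaemic, among them the red pulp macrophages that clear old red blood cells and the dendritic cells that present antigen on MHC class II. The comparison asks which genes separate the Mac-low cells with both stem cell surface proteins from the Mac-low cells with neither.

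The deposited values were FPKM, fragments scaled to the transcript's length and to the library's mapped fragments. Differences below are of mean log2(FPKM + 1), Kit+Sca1+ minus Kit-Sca1-, with their standard errors, and this scale understates the change of genes with low FPKM. Adjusted p-values are Benjamini-Hochberg values of limma's moderated test over 11599 genes, and a gene was called at an adjusted p under 0.05. Between the groups 5237 genes (45.2%) were called, 2531 higher (21.8%) and 2706 lower (23.3%) in Kit+Sca1+. Every count of list members below is to be read beside these shares. With a difference of 1 or more on the log2 scale, 881 genes (7.6%) were higher and 439 (3.78%) lower. The values of the 9 libraries did not overlap between the groups for 3915 genes (33.8%), 2002 higher (17.3%) and 1913 lower (16.5%). The median difference over all genes tested was -0.03. FPKM sums ran from 469806 to 644381, and the read depth is unknown beyond an estimate of relative depth that spanned 2.46-fold. Correlations of log2 values were 0.9425 to 0.9702 within the groups and 0.8609 to 0.8973 between them, and the first principal component (56.4% of the variance) placed the groups apart. Nras was listed at 0.001 FPKM, the table's value for 0, in all 24 libraries, so the transgene could not be checked against the labels.

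The genes of the 3 sorted surface proteins differed between the groups. Kit was at 26.8, 32.0, 43.6 and 34.8 FPKM in Kit+Sca1+ cells, against 0.643, 0.572, 0.744, 0.487 and 0.895 FPKM in Kit-Sca1- cells. Ly6a was at 7.20, 9.75, 8.07 and 5.64 FPKM in Kit+Sca1+ cells, against 0.873, 1.74, 1.52, 0.499 and 0.466 FPKM in Kit-Sca1- cells. For both genes every Kit+Sca1+ library lay above every Kit-Sca1- library, which is the direction of the gates (log2 differences 4.39 ± 0.15 and 2.13 ± 0.22). Itgam was at 39.2, 52.6, 98.0 and 58.1 FPKM in Kit+Sca1+ cells, against 203, 296, 382, 158 and 295 FPKM in Kit-Sca1- cells. Although both groups were gated as Mac-low, their Itgam values did not overlap (-2.10 ± 0.29, adjusted p = 3.76e-06). Exact two-sided permutation tests gave p = 0.00794 for each of the 3 genes, also after adjustment over the 3, which is the smallest p that groups of 4 and 5 allow. For Kit and Ly6a the test only checks the sort, because the groups were gated on their proteins.

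**Figure D1:**
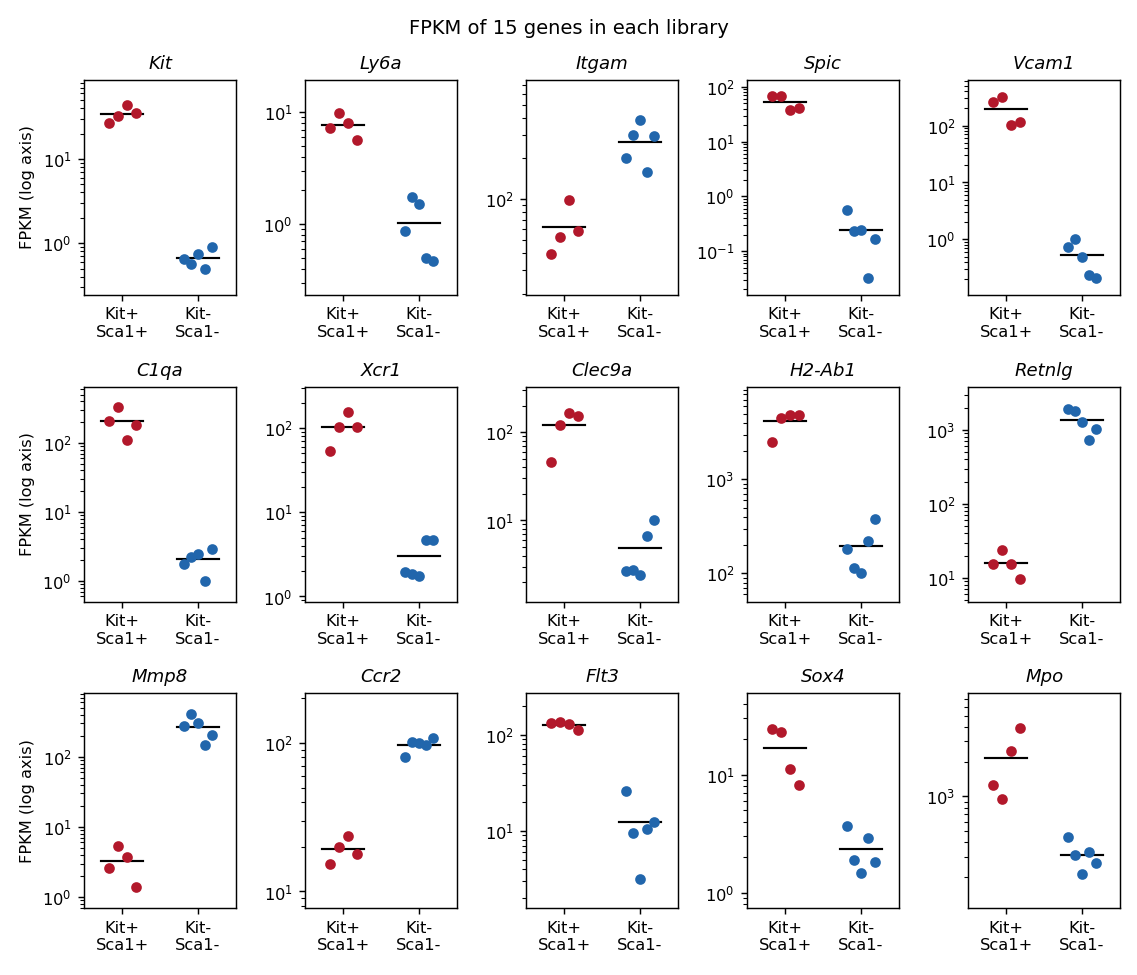
FPKM (log axis) of 15 genes in each library, with Kit+Sca1+ cells (4 libraries, red) on the left and Kit-Sca1- cells (5 libraries, blue) on the right of each panel, and a line at the group mean. In all 15 panels the 2 groups do not overlap: Itgam, Retnlg, Mmp8 and Ccr2 were lower and the other 11 genes higher in Kit+Sca1+ cells.

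Genes of red pulp macrophages were among the largest differences. Of 26 tested genes of that list, 25 were higher in Kit+Sca1+ cells and 0 lower, and the median log2 difference of the list was 3.08. This list and those below were written with earlier results of these data known, so their counts describe the members and are not tests. Vcam1 (chromosome 3, 116110020 to 116129688), an adhesion molecule that these macrophages carry, was at 255, 319, 104 and 115 FPKM in Kit+Sca1+ cells. The Kit-Sca1- libraries had 0.734, 1.03, 0.494, 0.239 and 0.213 FPKM. The difference of 6.88 ± 0.36 (adjusted p = 1.79e-12) was the highest of the genes ranked. Spic (chromosome 10, 88675269 to 88683023), the transcription factor that red pulp macrophages need to develop, was at 67.6, 67.5, 37.9 and 41.6 FPKM in Kit+Sca1+ cells. In Kit-Sca1- cells Spic did not exceed 0.555 FPKM (difference 5.42 ± 0.21). The chains of complement C1q were higher too, with C1qa at 110 to 329 FPKM in Kit+Sca1+ cells and 1.01 to 2.91 FPKM in Kit-Sca1- cells (6.01 ± 0.29). C1qc and C1qb differed by 5.92 and 5.23. In MacHigh cells C1qa was at 37.6 to 91.9 FPKM and C1qc at 41.6 to 104 FPKM. C1qb was at 69.5 to 157 FPKM there, which overlapped its 96.9 to 295 FPKM in Kit+Sca1+ cells.

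Further genes of macrophage proteins were higher in Kit+Sca1+ cells. Cd5l, a secreted protein of tissue macrophages, was at 97.5, 89.4, 29.7 and 52.6 FPKM in Kit+Sca1+ cells, against at most 0.249 FPKM in Kit-Sca1- cells (5.76 ± 0.33). Fcna, the lectin ficolin A, was higher by 5.10 and Itgad, the integrin alpha D chain, by 4.35. Epb4.1l3, a membrane skeleton protein, was higher by 2.99. The macrophage transcription factor Maf (2.51) and the lipid sensor Pparg (1.66) were also higher. Like C1qb, neither was particular to Kit+Sca1+ cells. Maf was at 7.59 to 20.4 FPKM there and at 14.3 to 60.0 FPKM in MacHigh cells. Pparg was at 8.62 to 19.3 FPKM in Kit+Sca1+ and 10.3 to 18.3 FPKM in MacHigh cells, while Cd5l was at 1.02 to 5.79 FPKM in MacHigh cells. The summed FPKM of the red pulp macrophage list was 1435 to 3265 in Kit+Sca1+ libraries and 133 to 282 in Kit-Sca1- libraries. In MacHigh libraries it was 877 to 1571. All 3 defining markers, Spic, Vcam1 and Cd5l, were above 0.001 FPKM in all 9 libraries. In bulk samples like these, fewer cells of a type and less RNA per cell cannot be told apart, and whether red pulp macrophages were among the sorted cells was not tested.

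A set of genes of cross-presenting dendritic cells (cDC1) was higher in Kit+Sca1+ cells. Of 17 tested genes 16 were higher and 0 lower, with a median difference of 4.03. Xcr1 (chromosome 9, 123852315 to 123862029), the receptor of the chemokine XCL1 and a marker of these cells, was at 53.6, 104, 156 and 104 FPKM in Kit+Sca1+ cells. In Kit-Sca1- cells it was at 1.98, 1.84, 1.74, 4.64 and 4.73 FPKM (difference 4.72 ± 0.35, adjusted p = 2.87e-10). Clec9a, a receptor for the actin of dead cells, was at 46.1, 122, 165 and 154 FPKM in Kit+Sca1+ cells, against 2.67, 2.73, 2.40, 6.73 and 10.1 FPKM in Kit-Sca1- cells. For both genes the lowest Kit+Sca1+ library, replicate 1, was still above the highest Kit-Sca1- library.

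The other leading cDC1 genes cover adhesion, antigen handling and transcription. Itgae, the integrin chain CD103, was higher by 4.83 and Cadm1, an adhesion molecule, by 4.53. Tlr11, a receptor for profilin of parasites, was higher by 4.76, Cd207 (the lectin langerin) by 4.28 and Wdfy4, which cross-presentation requires, by 2.57. The coreceptor gene Cd8a, which mouse cDC1 also carry, was at 11.4, 30.6, 37.6 and 29.8 FPKM in Kit+Sca1+ cells and at 0.382 to 1.32 FPKM in Kit-Sca1- cells. Of the factors that specify cDC1, Batf3 was higher by 3.77 ± 0.41. Irf8 was at 443, 664, 753 and 734 FPKM in Kit+Sca1+ cells, against 214, 201, 177, 283 and 251.3 FPKM in Kit-Sca1- cells (1.51 ± 0.30, adjusted p = 0.000313). Genes of other dendritic cells were higher in 14 of 18 and lower in 1 (2 in the fit blocked on the sample name prefix), with a median of 1.28. They included the activation markers Cd83 (3.66) and Cd86 (3.62), the dendritic cell factor Zbtb46 (3.04) and the peptidase Dpp4 (2.97). The summed cDC1 list ran from 2608 to 4960 FPKM in Kit+Sca1+ libraries and from 613 to 904 FPKM in Kit-Sca1- libraries, and the defining markers Xcr1 and Clec9a were at 0.001 in no library. In MacHigh libraries the cDC1 sums were 1004 to 1498 FPKM. The list of other dendritic cells summed to 457 to 652 FPKM in Kit+Sca1+ and 224 to 365 FPKM in Kit-Sca1- libraries. Its sums were higher in MacHigh libraries, at 705 to 1284 FPKM. The part of dendritic cells in the result was not tested.

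MHC class II genes were higher in all 11 tested members of their list, with a median difference of 3.65. H2-Ab1 (chromosome 17, 34263227 to 34269418), a beta chain of the antigen-presenting molecule, was at 2487, 4474, 4857 and 4846 FPKM in Kit+Sca1+ cells. The Kit-Sca1- libraries had 180, 115, 100, 220 and 375 FPKM (difference 4.50 ± 0.40). Ciita, the master coactivator of this gene family, was at 66.1, 111, 165 and 108 FPKM in Kit+Sca1+ cells, against 4.25, 3.00, 3.26, 5.96 and 9.91 FPKM in Kit-Sca1- cells (4.21 ± 0.34). H2-Eb1 was higher by 4.48, and H2-DMb1 and H2-DMb2, which help load peptides, by 2.89 and 2.83. The list summed to 14229 to 26518 FPKM in Kit+Sca1+ libraries and 693 to 2510 FPKM in Kit-Sca1- libraries. In MacHigh libraries it summed to 9222 to 19618 FPKM, which overlapped the Kit+Sca1+ sums.

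Because the members of this family moved together, the promoters of 3 of them are shown. The sequences are RefSeq's, build GRCm38.p6, plus strand, from 250 bases before to 50 after the start that the promoter table uses, at chr17:34305617-34305916 (H2-Eb1), chr17:34152941-34153240 (H2-DMb1) and chr17:34144999-34145298 (H2-DMb2). For H2-DMb2 this start lies inside the annotated gene, which spans 34143229 to 34151553. Capitals mark every match to the CCAAT box, searched on both strands, so that ATTGG is the same box on the opposite strand. The box is the core of the Y element of these promoters, but a match need not be that element. H2-Eb1 has 2 matches, and which of them belongs to the Y element was not tested.
H2-Eb1: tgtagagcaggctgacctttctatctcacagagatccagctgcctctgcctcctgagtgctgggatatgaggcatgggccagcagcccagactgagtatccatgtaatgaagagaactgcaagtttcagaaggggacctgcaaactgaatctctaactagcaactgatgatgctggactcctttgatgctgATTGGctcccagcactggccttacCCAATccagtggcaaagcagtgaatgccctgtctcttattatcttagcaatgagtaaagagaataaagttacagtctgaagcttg
H2-DMb1: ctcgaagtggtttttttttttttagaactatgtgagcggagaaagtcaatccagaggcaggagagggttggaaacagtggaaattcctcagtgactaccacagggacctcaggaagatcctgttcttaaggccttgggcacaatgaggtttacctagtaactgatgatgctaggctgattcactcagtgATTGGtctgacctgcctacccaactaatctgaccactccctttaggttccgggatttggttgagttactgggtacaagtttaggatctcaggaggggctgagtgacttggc
H2-DMb2: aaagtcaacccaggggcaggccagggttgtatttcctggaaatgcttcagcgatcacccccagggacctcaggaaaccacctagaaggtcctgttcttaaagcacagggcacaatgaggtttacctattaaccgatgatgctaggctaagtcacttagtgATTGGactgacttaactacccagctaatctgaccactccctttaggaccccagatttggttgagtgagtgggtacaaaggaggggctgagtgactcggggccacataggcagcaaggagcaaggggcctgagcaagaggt
The box was found in 8 of the 8 listed genes that have a promoter entry, and in 41.1% of all 27025 genes with one. This is a description of the letters, not of binding.

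Genes of late neutrophil development were lower in Kit+Sca1+ cells: 27 of 33 tested genes were lower and 0 higher, with a median of -1.64. Retnlg (chromosome 16, 48872608 to 48874498), a secreted resistin-like protein, was at 15.3, 23.8, 15.4 and 9.55 FPKM in Kit+Sca1+ cells. In Kit-Sca1- cells it was at 1928, 1808, 1296, 730 and 1035 FPKM (difference -6.30 ± 0.42, adjusted p = 5.11e-11). Mmp8 (chromosome 9, 7558429 to 7568486), the neutrophil collagenase, was at 2.62, 5.30, 3.76 and 1.37 FPKM in Kit+Sca1+ cells, against 276, 404, 305, 147 and 207 FPKM in Kit-Sca1- cells (-5.99 ± 0.45). For both genes every Kit+Sca1+ library lay far below every Kit-Sca1- library. Mmp9, a gelatinase of neutrophil granules, was lower (-4.58), and so were the lectin receptors Clec4d (-2.84) and Clec4e (-2.72). Stfa3 and Stfa2l1, stefin A protease inhibitors, were lower (-4.12 and -3.64), and since they are near-identical copies of neighbouring genes the split of reads among them is uncertain. The list as a whole summed to 14868, 19848, 46013 and 22099 FPKM in Kit+Sca1+ libraries, against 40678, 53310, 66133, 24279 and 53925 FPKM in Kit-Sca1- libraries. These sums overlapped between the groups.

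The Mmp8 promoter is shown because Mmp8 had the second lowest difference. It is RefSeq's, build GRCm38.p6, plus strand, chr9:7558179-7558478, with a match to TTGCNNAA, a C/EBP-type motif, in capitals.
Mmp8: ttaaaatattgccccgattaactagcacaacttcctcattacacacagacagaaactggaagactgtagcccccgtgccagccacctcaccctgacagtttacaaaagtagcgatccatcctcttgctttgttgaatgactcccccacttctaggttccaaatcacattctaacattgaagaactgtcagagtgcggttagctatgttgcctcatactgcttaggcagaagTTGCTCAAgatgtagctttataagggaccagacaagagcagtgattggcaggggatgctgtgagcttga
The motif, searched on both strands, was in the promoters of 11 of 30 late neutrophil genes with an entry (36.7%), against 12.2% of all genes with one. Of the 24 called lower, 8 had it, so the motif was not confined to the genes that fell. This too describes the letters and not binding, and a link to the differences was not tested.

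**Figure D2:**
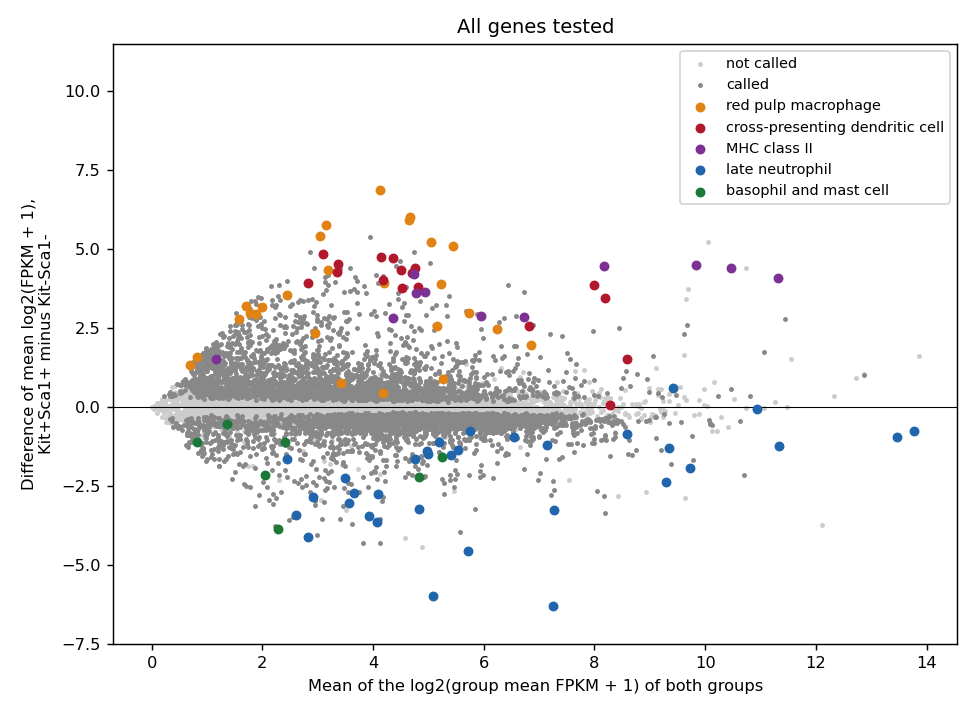
Difference of mean log2(FPKM + 1), Kit+Sca1+ minus Kit-Sca1- (vertical axis), against the mean log2 level of both groups (horizontal axis) for all 11599 genes tested; grey points are called (dark) or not (light) and colours mark 5 gene lists. Red pulp macrophage, cDC1 and MHC class II genes lie above 0 and the basophil and mast cell genes below it, and late neutrophil genes lie mostly below it.

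Genes of monocytes and macrophages were mostly lower in Kit+Sca1+ cells. Of 37 tested monocyte and macrophage genes 22 were lower and 6 higher (median -1.06), and the list summed to 2322 to 3769 FPKM in Kit+Sca1+ libraries and 4843 to 10472 FPKM in Kit-Sca1- libraries. Ccr2 (chromosome 9, 124101918 to 124109140), the chemokine receptor that inflammatory monocytes use to leave the marrow, was at 15.4, 20.04, 23.5 and 17.9 FPKM in Kit+Sca1+ cells. In Kit-Sca1- cells it was at 80.7, 101, 100, 97.4 and 108 FPKM (-2.30 ± 0.14). Klf4, a monocyte transcription factor, was at 5.71, 5.27, 3.40 and 7.42 FPKM in Kit+Sca1+ cells and at 52.4, 44.3, 41.3, 50.4 and 54.6 FPKM in Kit-Sca1- cells (-2.97 ± 0.22). Fn1 (fibronectin, -4.32), the proteoglycan Vcan (-3.58) and the lipid receptor Trem2 (-3.56) were lower too. The higher members included Mrc1, Clec4n, Ms4a7, Mpeg1 and Fcgr1, and Fcgr1 was not called without Kit+Sca1+ replicate 2 (adjusted p = 0.0504). Csf1r, the receptor of macrophage colony-stimulating factor, was at 83.6, 140, 56.0 and 88.2 FPKM in Kit+Sca1+ cells, against 60.6, 90.3, 146, 91.1 and 151 FPKM in Kit-Sca1- cells, and was not called (-0.22, adjusted p = 0.48).

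All 7 tested genes of basophils and mast cells were lower, with a median of -1.60, and their sum was 35.5 to 53.2 FPKM in Kit+Sca1+ libraries and 127 to 203 FPKM in Kit-Sca1- libraries. Mcpt8, a basophil protease, was at 20.7, 16.1, 6.74 and 6.71 FPKM in Kit+Sca1+ cells, against 88.8, 59.2, 32.4, 65.2 and 47.3 FPKM in Kit-Sca1- cells (-2.21 ± 0.40). Prss34, another basophil protease, was at 0.421, 0.117, 0.001 and 0.418 FPKM in Kit+Sca1+ cells and at 25.6, 13.9, 7.88, 24.4 and 18.5 FPKM in Kit-Sca1- cells. Ms4a2, a chain of the IgE receptor, was lower (-2.14). The part of basophils in these differences was not tested.

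Genes of stem and progenitor cells were higher in 11 and lower in 5 of the 18 members that passed the filter on low values, of 34 listed (median 1.05). Sox4 (chromosome 13, 28948919 to 28953699), a transcription factor of immature blood cells, was at 24.4, 23.1, 11.3 and 8.10 FPKM in Kit+Sca1+ cells. The Kit-Sca1- libraries had 3.65, 1.90, 1.47, 2.92 and 1.82 FPKM (2.31 ± 0.24). Angpt1, a ligand of the Tie2 receptor, was at 29.4, 18.6, 10.6 and 7.27 FPKM in Kit+Sca1+ cells and at 0.640 to 1.85 FPKM in Kit-Sca1- cells (2.90 ± 0.31). Egfl7, a secreted protein of stem cells and endothelium, was at 74.9, 55.3, 27.4 and 25.8 FPKM in Kit+Sca1+ cells and at 3.15 to 10.3 FPKM in Kit-Sca1- cells. In all 3 genes replicates 1 and 2 were above replicates 3 and 4 within Kit+Sca1+. Procr, the protein C receptor that marks blood stem cells, was instead lowest in replicate 1, at 7.13 FPKM against 15.4 to 16.2 FPKM in the others (difference 2.57 ± 0.27). Gata2, a stem cell and mast cell factor, was at 10.5, 5.87, 3.11 and 2.49 FPKM in Kit+Sca1+ cells, against 10.6 to 23.0 FPKM in Kit-Sca1- cells (-1.46 ± 0.30), and Cd34, Cd93, Lmo2 and Lyl1 were the other 4 that fell, Lyl1 not without Kit+Sca1+ replicate 2 (adjusted p = 0.0597).

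Of 26 tested genes tied to MLL-fusion leukaemia or to self-renewal, 5 were higher, 7 lower and 14 not called, and the median was -0.02. These counts lay near the shares over all genes, of which 21.8% were higher and 23.3% lower. Flt3 (chromosome 5, 147330741 to 147400489), a receptor tyrosine kinase of progenitors and dendritic cells, was at 131, 134, 128 and 113 FPKM in Kit+Sca1+ cells. In Kit-Sca1- cells it was at 26.1, 9.48, 3.11, 10.5 and 12.2 FPKM (3.51 ± 0.39, adjusted p = 1.6e-07). Id2, an inhibitor of helix-loop-helix factors that cDC1 need, was higher by 2.40 ± 0.30. Gfi1, a repressor in granulocyte precursors, was higher by 1.43 ± 0.27 and Bmi1, a polycomb component linked to self-renewal, by 0.35 ± 0.11. Bmi1 was at 20.9, 16.4, 14.2 and 14.9 FPKM in Kit+Sca1+ cells and at 15.1, 12.4, 10.2, 15.4 and 11.0 FPKM in Kit-Sca1- cells, so the groups overlapped, and without Kit+Sca1+ replicate 1 it was not called (adjusted p = 0.0879). Zeb2, a myeloid transcription factor, was lower (-1.69 ± 0.17), and Runx1, Runx2, Lmo2, Dot1l, Bcl2 and Cebpa were the others that fell. Runx1 lost its call without any 1 library except Kit+Sca1+ replicate 3, with adjusted p-values up to 0.114.

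Hoxa9, Hoxa10 and the factors that act with them in MLL-driven leukaemia were not called. Meis1, a homeobox cofactor of Hoxa9, was at 8.48, 6.18, 6.49 and 4.26 FPKM in Kit+Sca1+ cells, against 5.54, 5.59, 7.02, 4.84 and 5.94 FPKM in Kit-Sca1- cells (0.09 ± 0.14, adjusted p = 0.633). Hoxa9 was at 8.94, 8.69, 2.65 and 6.21 FPKM in Kit+Sca1+ cells and at 7.35, 6.83, 2.92, 6.24 and 5.12 FPKM in Kit-Sca1- cells (0.13 ± 0.30, adjusted p = 0.748). Myb was at 91.7, 66.3, 91.4 and 124 FPKM in Kit+Sca1+ cells and at 78.4, 84.2, 67.5, 74.1 and 62.8 FPKM in Kit-Sca1- cells (0.32 ± 0.19, adjusted p = 0.195). Their values overlapped, as did those of Mef2c (-0.06 ± 0.23, adjusted p = 0.859). Hoxa10, at 2.61, 2.51, 0.839 and 1.62 FPKM in Kit+Sca1+ cells and 1.24, 1.15, 0.223, 0.838 and 1.07 FPKM in Kit-Sca1- cells, missed the threshold (0.59 ± 0.25, adjusted p = 0.057). In the fit that blocks on the prefix of the sample names it was called (0.54, adjusted p = 0.0013), as it was without Kit+Sca1+ replicate 3 (adjusted p = 0.0157) or without Kit-Sca1- replicate 1 (0.0491). A p that misses the threshold does not show that levels were equal.

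**Figure D3:**
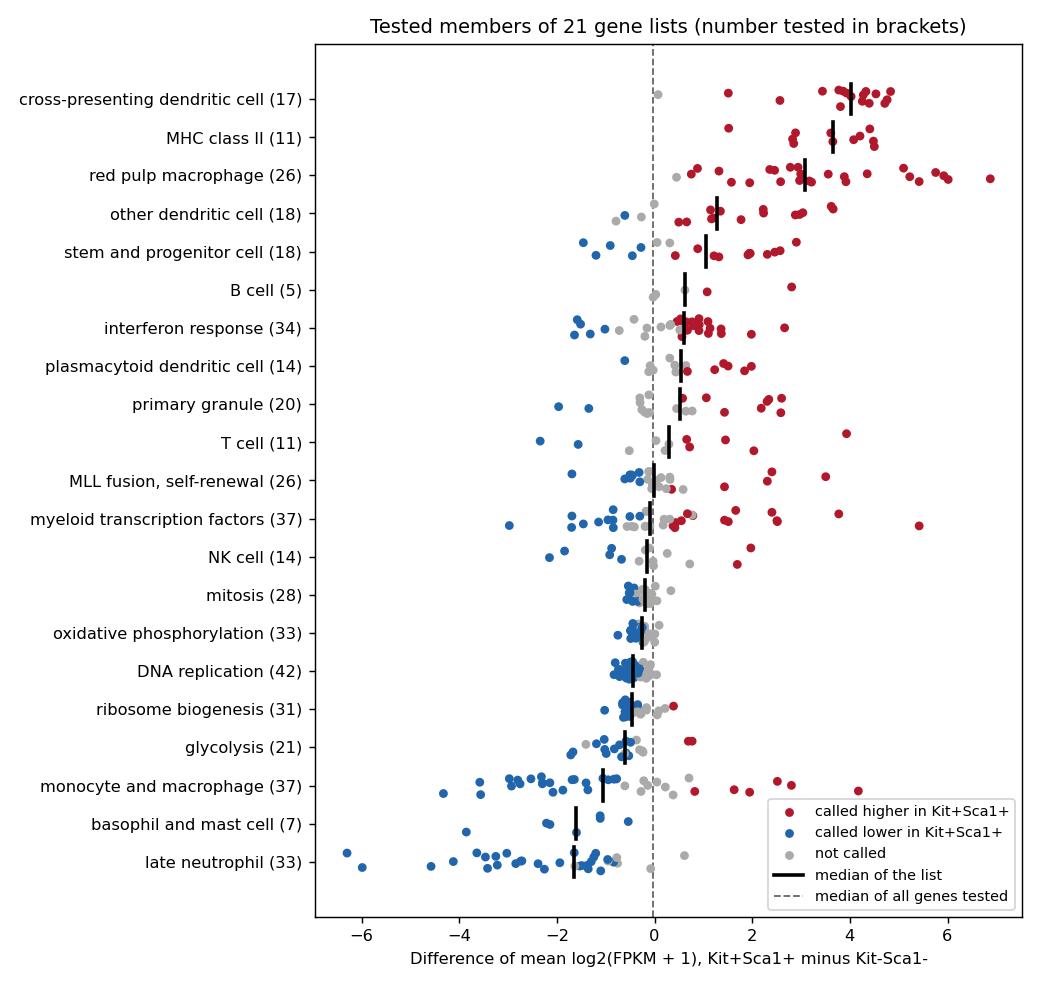
Log2 differences, Kit+Sca1+ minus Kit-Sca1- (horizontal axis), of the tested members of 21 gene lists, ordered by the list's median (black bar), with the median of all genes tested as a dashed line. Red points were called higher, blue points lower and grey points not called; the cDC1 list has the highest median (4.03) and the late neutrophil list the lowest (-1.64).

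Primary granule genes, which neutrophil precursors switch on early, were higher in 8 and lower in 2 of 20 (median 0.51). Mpo (chromosome 11, 87793784 to 87804412), myeloperoxidase, was at 1255, 943, 2462 and 3927 FPKM in Kit+Sca1+ cells, against 440, 310, 212, 330 and 263 FPKM in Kit-Sca1- cells (2.60 ± 0.35). The serine protease Prss57 (2.34) and the ficolin Fcnb (2.59) were higher with it. Fcnb was higher still in Kit+Sca1- cells, at 680 to 1543 FPKM against 142 to 489 FPKM in Kit+Sca1+ cells. Mpo and Prss57 were listed at 0.001 in every Kit+Sca1- library and were set to missing there. Mpo, Prss57 and Fcnb were each higher in Kit+Sca1+ replicates 3 and 4 than in replicates 1 and 2, the reverse of Sox4. Ctsc, the peptidase that activates granule proteases, was at 55.7, 67.1, 36.5 and 53.2 FPKM in Kit+Sca1+ cells and at 176, 202, 212, 232 and 209 FPKM in Kit-Sca1- cells (-1.96 ± 0.17).

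Of 27 tested cytokine receptors 10 were higher and 8 lower in Kit+Sca1+ cells (median 0.05). The 10 include Kit, on whose protein the groups were sorted. Ifngr1, a chain of the interferon gamma receptor, was at 257, 316, 319 and 381 FPKM in Kit+Sca1+ cells, against 100, 104, 103, 88.0 and 155 FPKM in Kit-Sca1- cells (1.53 ± 0.15). Tgfbr2, a receptor of TGF-beta, was higher by 1.05. Il17ra, the interleukin 17 receptor, was at 32.1, 31.7, 31.8 and 31.3 FPKM in Kit+Sca1+ cells and at 106, 118, 133, 91.4 and 131 FPKM in Kit-Sca1- cells (-1.82 ± 0.13). Csf3r, the receptor of the neutrophil growth factor G-CSF, was lower (-1.10), as was Csf2rb, the shared beta chain of the GM-CSF and interleukin 3 receptors (-0.86). Of 32 genes of adhesion and homing 14 were higher and 13 lower (median -0.10), Vcam1 and Itgae among the higher and Ccr2 among the lower. Myeloid transcription factors were higher in 14 and lower in 11 of 37 (median -0.10), with Spic and Batf3 at the high end and Klf4 at the low end. Of the C/EBP factors, Cebpb was at 13.9, 10.9, 19.7 and 17.3 FPKM in Kit+Sca1+ cells and at 50.4, 40.3, 79.5, 36.5 and 60.0 FPKM in Kit-Sca1- cells (-1.70 ± 0.23). Cebpd (-0.95) and Cebpa (-0.51) were also lower, with overlapping values. Cebpe, which acts late in neutrophil development, was at 42.8, 54.3, 130 and 98.9 FPKM in Kit+Sca1+ cells, against 35.0, 39.1, 77.9, 22.9 and 59.1 FPKM in Kit-Sca1- cells, and was not called (0.77, adjusted p = 0.0973), though it was without Kit+Sca1+ replicate 1 or without Kit-Sca1- replicate 3 (adjusted p = 0.0375 each).

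Genes of DNA replication were lower in Kit+Sca1+ cells in 29 of 42, and 0 were higher, with a median of -0.44. Cdc6, which loads the replicative helicase, was at 7.96, 8.96, 10.3 and 9.33 FPKM in Kit+Sca1+ cells and at 13.9, 17.99, 15.2, 23.5 and 15.5 FPKM in Kit-Sca1- cells (-0.83 ± 0.13). Cdt1, its partner, was lower (-0.71), as were Mcm3, a helicase subunit (-0.72), and Gins1, a helicase cofactor (-0.74). Mitotic genes were lower in 8 of 28 and higher in 0 (median -0.20), a share of 8 among 28 against 23.3% over all genes, with Ccna2 (-0.57) and Birc5 (-0.52) among them. Without Kit+Sca1+ replicate 2 that count was 4, and without Kit-Sca1- replicate 4 it was 5. Of 21 regulators of G1, 10 were lower and 1 higher (median -0.27). Ccne1, cyclin E1, was at 12.8, 13.1, 12.9 and 11.2 FPKM in Kit+Sca1+ cells, against 33.2, 35.8, 27.96, 45.3 and 30.2 FPKM in Kit-Sca1- cells (-1.38 ± 0.17). Ccne2 (-1.16) and E2f2 (-1.51), which act at the same step, were lower as well. The inhibitor Cdkn1a (p21) was lower too, at 29.9, 24.9, 34.2 and 27.0 FPKM in Kit+Sca1+ cells and 182, 118, 132, 118 and 114 FPKM in Kit-Sca1- cells (-2.15 ± 0.16).

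Genes of energy metabolism and growth were also mostly lower or not called in Kit+Sca1+ cells. Glycolysis genes were lower in 13 and higher in 2 of 21 (median -0.61), with 1 higher without Kit+Sca1+ replicate 3. Aldoa, aldolase A, was at 232, 284, 279 and 305 FPKM in Kit+Sca1+ cells, against 507, 580, 580, 585 and 553 FPKM in Kit-Sca1- cells (-1.03 ± 0.09). Pkm, pyruvate kinase, was lower (-1.02), as were Slc2a1, a glucose transporter (-0.82), and Slc16a3, a lactate exporter (-1.67). Oxidative phosphorylation genes were lower in 18 of 33 and higher in 0 (median -0.25), among them Ndufs1 and Uqcrq (-0.49 each), subunits of complexes I and III. Ribosome biogenesis genes were lower in 17 and higher in 1 of 31 (median -0.46), and Srm, spermidine synthase, was lower (-1.02). The count of 17 was 9 without Kit+Sca1+ replicate 3 and 11 without Kit-Sca1- replicate 4, and the 1 higher gene was not called without Kit+Sca1+ replicate 2 or without Kit-Sca1- replicate 5.

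Interferon response genes were higher in 21 and lower in 5 of 34 (median 0.61). Gbp2, a GTPase that interferon gamma induces, was at 17.1, 21.3, 25.9 and 22.2 FPKM in Kit+Sca1+ cells and at 1.56, 2.35, 4.97, 1.79 and 2.86 FPKM in Kit-Sca1- cells (2.66 ± 0.27). Irf7, a transcription factor of the response, was higher by 1.98, Irgm1, an immunity GTPase, by 1.36 and Ifit2 by 1.09. The 5 lower members were Oas2, Oas3, Oasl2, Cmpk2 and Ifitm3. Cxcl9, a chemokine induced by interferon gamma, was at 29.5, 50.8, 37.2 and 38.7 FPKM in Kit+Sca1+ cells, against 0.386, 0.277, 0.0779, 0.493 and 0.326 FPKM in Kit-Sca1- cells (4.91 ± 0.22).

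Of 19 inflammatory genes 7 were higher and 5 lower (median 0.15). Cxcl16, a membrane-bound chemokine, was at 16.6, 25.9, 21.8 and 28.5 FPKM in Kit+Sca1+ cells and at 0.920, 1.04, 0.935, 1.17 and 2.27 FPKM in Kit-Sca1- cells (3.42 ± 0.25). Il1a, interleukin 1 alpha, was higher by 1.95, while Il1rn, which blocks its receptor, was lower (-2.69). Immediate early genes were higher in 6 and lower in 2 of 23 (median 0.52), with Jund (0.99) and Btg2 (1.52) among the higher and Gadd45a (-1.41) among the lower. In the fit blocked on the prefix 14 were higher, and 1 rather than 2 was lower without any 1 of Kit+Sca1+ replicates 2 and 3 and Kit-Sca1- replicates 1 and 5. RAS and ERK feedback and target genes were higher in 2 and lower in 6 of 19 (median -0.09). Of these, Plaur, the urokinase receptor, was at 12.3, 10.8, 18.2 and 14.6 FPKM in Kit+Sca1+ cells and at 102, 88.9, 119, 67.8 and 125 FPKM in Kit-Sca1- cells (-2.75 ± 0.26), and the receptor kinase Epha2 (-2.20), Fosl1 (-1.71) and Phlda1 (-1.10) were lower with it.

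Counts in the next 3 lists, like those of the self-renewal list, lay near the shares over all genes, of which 21.8% were higher and 23.3% lower. Lysosome genes were higher in 10 and lower in 7 of 30 (median 0.11). The protease Ctsb was higher by 1.37, while the membrane proteins Lamp1 and Lamp2 were lower (-0.92 and -0.79). Chromatin regulators were higher in 8 and lower in 10 of 32 (median 0.12). Dnmt3a, a DNA methyltransferase, was at 16.0, 18.6, 16.5 and 13.1 FPKM in Kit+Sca1+ cells, against 6.06, 5.90, 5.30, 7.001 and 5.81 FPKM in Kit-Sca1- cells (1.27 ± 0.14). The polycomb genes Phc1 (1.25) and Cbx2 (1.15) were higher and Eed (-0.43) lower. Of 15 genes of the BCL2 family 4 were higher and 5 lower (median -0.05). Bcl2a1b was higher by 3.39, but it is a near-identical copy of Bcl2a1a and Bcl2a1d, so its own share of reads is uncertain, and the death promoter Bid was lower (-0.66). Bcl2 was at 23.5, 19.8, 12.4 and 9.82 FPKM in Kit+Sca1+ cells and at 24.6, 25.4, 19.4, 24.8 and 18.2 FPKM in Kit-Sca1- cells (-0.50 ± 0.18, adjusted p = 0.0246). Its values overlapped, and the call was lost without any 1 of 5 libraries: Kit+Sca1+ replicates 3 and 4 (adjusted p = 0.0969 and 0.151) and Kit-Sca1- replicates 1, 2 and 4 (0.0523, 0.0587 and 0.0547).

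Markers of further cell types moved less uniformly. NK cell genes were higher in 2 and lower in 5 of 14 (median -0.15, sum 75.5 to 198 FPKM in Kit+Sca1+ and 132 to 408 FPKM in Kit-Sca1- libraries), with Klrk1 (1.69) higher and Ccl5 (-2.15) and Klrb1c (-0.88) lower. T cell genes were higher in 5 and lower in 2 of 11 (median 0.29, sum 48.3 to 74.3 FPKM in Kit+Sca1+ and 28.9 to 36.9 FPKM in Kit-Sca1- libraries). Cd8a was among the higher ones, and Cd28 (-1.56) and the T cell receptor subunit Cd3d, at 0.500 to 3.24 FPKM in Kit+Sca1+ cells and 6.26 to 19.5 FPKM in Kit-Sca1- cells, were the lower ones. Cd3e was listed at 0.001 in all 4 Kit+Sca1+ libraries and at 0.001 to 0.0819 FPKM in Kit-Sca1- libraries, too low to be tested. B cell genes were higher in 2 of 5 (median 0.62), Fcrla (2.81) and the defining marker Ms4a1 (1.08). Cd79a, too low to be tested, was listed at 0.001 in all 4 Kit+Sca1+ libraries and at 0.134 to 0.372 FPKM in Kit-Sca1- libraries. Plasmacytoid dendritic cell genes were higher in 6 and lower in 1 of 14 (median 0.54), with the chemokine receptor Ccr9 (1.84) higher and the defining marker Siglech at 0.430 to 1.02 FPKM in Kit+Sca1+ cells and 0.144 to 1.11 FPKM in Kit-Sca1- cells.

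Eosinophil genes were higher in 3 and lower in 1 of 8 (median 0.92, sum 77.5 to 113 FPKM in Kit+Sca1+ and 15.4 to 49.5 FPKM in Kit-Sca1- libraries), and Ccr3, the eotaxin receptor, was at 10.1, 32.8, 14.2 and 10.3 FPKM in Kit+Sca1+ cells, against at most 0.179 FPKM in Kit-Sca1- cells (3.85 ± 0.22). Erythroid genes were higher in 3 and lower in 0 of 24 (median 0.23, sum 79.2 to 170 FPKM in Kit+Sca1+ and 39.3 to 89.3 FPKM in Kit-Sca1- libraries), where 21.8% of all genes were higher. With the prefix block 6 erythroid genes were higher and 2 lower. Megakaryocyte genes were higher in 5 and lower in 3 of 13 (median 0.01), with Vwf (1.41) higher and Nfe2 (-1.19) lower, plasma cell genes higher in 1 and lower in 1 of 4 (0 higher without any 1 of Kit+Sca1+ replicates 2 and 4 and Kit-Sca1- replicates 1, 2 and 3), and endothelial and stromal genes lower in 1 of 2. The part of these cell types in the results was not tested.

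**Figure D4:**
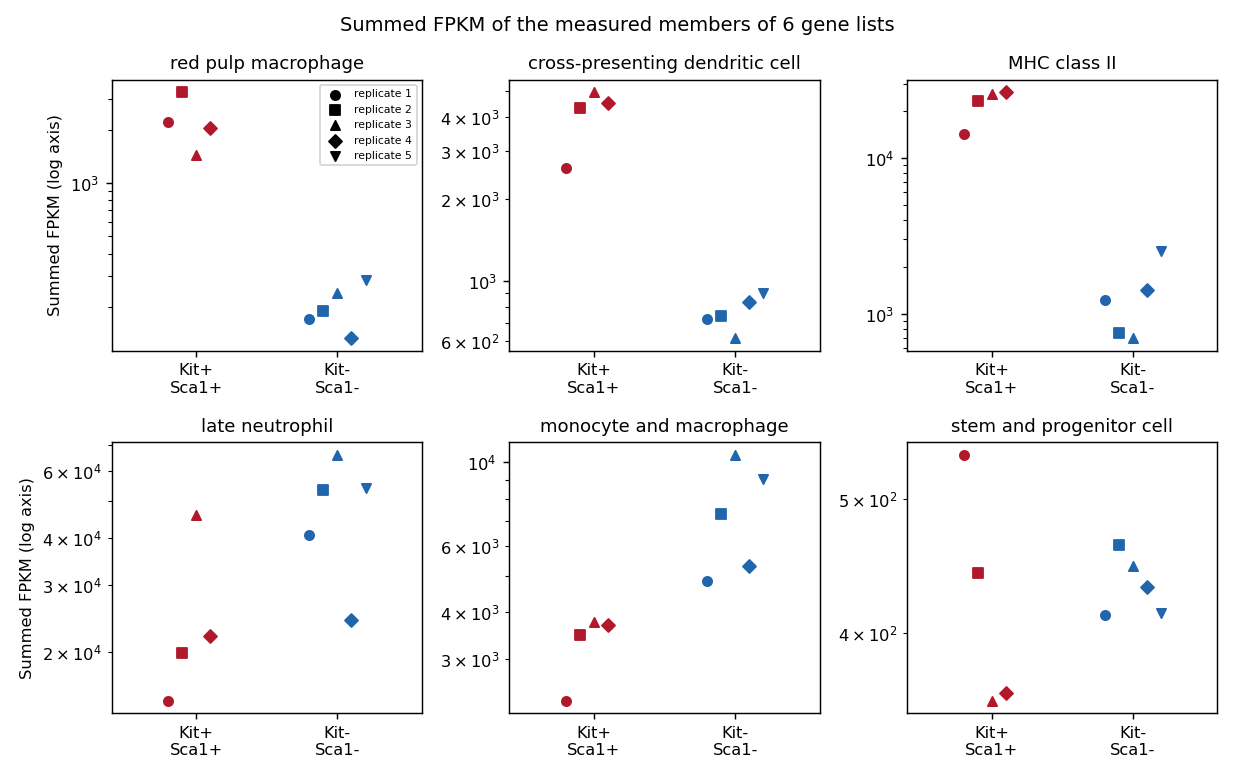
Summed FPKM (log axis) of the measured members of 6 gene lists in each of the 4 Kit+Sca1+ (red) and 5 Kit-Sca1- (blue) libraries, with a symbol for each replicate number; number 4 does not pair the groups. Red pulp macrophage, cDC1 and MHC class II sums are higher in every Kit+Sca1+ library and the monocyte sums lower, while the late neutrophil and the stem and progenitor sums overlap.

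The Kit+Sca1+ libraries differed among themselves in which of these groups was high. Red pulp macrophage genes summed to 2204, 3265, 1435 and 2033 FPKM, highest in replicate 2 and lowest in replicate 3. The cDC1 genes summed to 2608, 4318, 4960 and 4536 FPKM, lowest in replicate 1. Stem and progenitor genes summed to 539, 442, 357 and 361 FPKM in the same order of replicates, highest in replicate 1, against 412, 463, 447, 432 and 413 FPKM in Kit-Sca1- libraries.

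Set beside the third Mac-low population, Kit+Sca1- cells, the 15 genes with the highest differences were all also higher in Kit+Sca1+ than in Kit+Sca1- cells, where 6368 of 11564 genes (55.1%) were called, 3070 (26.5%) of them higher. These 2 comparisons share the Kit+Sca1+ libraries. Xcr1, for example, averaged 105 FPKM in Kit+Sca1+, 4.41 FPKM in Kit+Sca1- and 2.99 FPKM in Kit-Sca1- cells, and Spic 53.7, 0.317 and 0.246 FPKM. Of the 15 genes with the lowest differences, 9 were also lower in Kit+Sca1+ than in Kit+Sca1- cells, 5 were not called and Trem2 was higher. Over all genes of that comparison 3298 (28.5%) were lower. Retnlg averaged 16.0 FPKM in Kit+Sca1+, 86.6 FPKM in Kit+Sca1- and 1360 FPKM in Kit-Sca1- cells. Slfn1 and Slfn4 (Schlafen proteins), the protease Asprv1, the phosphatase Phospho1 and the adhesion protein Ceacam10 followed the same order of means. Fn1, Vcan and the leukotriene-degrading enzyme Cyp4f18 were low in both Kit+ groups, and Vcan averaged 0.617 FPKM in Kit+Sca1- cells. Of the remaining genes with the highest differences, Dnase1l3, a secreted DNase, averaged 97.7 FPKM in Kit+Sca1+ and 1.87 FPKM in Kit+Sca1- cells, and Anpep, the aminopeptidase CD13, 109 and 6.41 FPKM.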

How the data were processed

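RNA-seq was measured in 24 libraries, grouped by their titles. The authors deposited 1 table of FPKM for 23361 rows, in which 0.001 stands for 0. The submitters' processing notes name TopHat2 2.0.4, Cuffdiff and the genome build mm10. The annotation, the strand setting and the scaling between libraries are not given in the sources used here, and no counts were used, so depth is known only as a ratio between libraries. Columns were matched to samples by the sample name, and gene coordinates and promoters are RefSeq's for GRCm38.p6.

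On log2(FPKM + 1), 11599 rows that reached 1 FPKM in 4 libraries or more were tested. A model with 5 groups used all 24 libraries (limma 3.58.1, R 4.3.3, variance trend on), and Benjamini-Hochberg adjustment was over all kept rows. In 37 rows a group at 0.001 throughout, with another group at 5 FPKM or above in each library, was set to missing; 35 of these concern Kit+Sca1- and 0 the groups compared. Steps were tested on simulated data. Python 3.11.15 with matplotlib 3.10.9 drew the figures.

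The genes named are Itgam, Kit and Ly6a; the 15 highest and 15 lowest differences with an adjusted p under 0.05, no overlap and at least 5 FPKM on average in the higher group, without microRNA, snoRNA and predicted genes; the 4 members of each of 36 gene lists with the largest moderated statistic; defining markers; and members of 3 lists (self-renewal, cytokine receptors, myeloid factors). Other list members, such as Cd34, Lyl1 and Mrc1, were named after their values were seen. A few genes within the rule are not reported here. Members and lists were chosen with earlier results of these data known.

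Sample names carry prefixes shared between the groups (4 pairs): replicates 1, 2 and 3 share theirs across the groups, and Kit+Sca1+ replicate 4 shares its prefix with Kit-Sca1- replicate 5. Deviations from the group means correlated at 0.192 to 0.32 for each same-prefix pair and at -0.282 to 0.11 for the others. The prefix was therefore taken to pair the samples, though no label says what it marks, and used as a block in an alternative. Unless said otherwise, the differences, p-values and counts of the Results are from the fit without this block. It called 5237 genes, and the fit with the block 6380. Other alternatives changed the pseudocount, filter, scaling, samples fitted, variance trend and minimum difference, and left out each library.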

Additional observations from a re-analysis of the deposited data

Results flagged for a closer look

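In 10 of 308 groups of values of the named genes (3.25%), 1 library stood apart from the others of its group by Dixon's criterion, and chance gives about 1 in 20. In Kit+Sca1+ cells, replicate 1 was low for H2-Ab1 (2487 FPKM, the others 4474 to 4857) and Procr (7.13 FPKM, the others 15.4 to 16.2). Replicate 3 was low for Gins1 (19.2 FPKM, the others 24.2 to 24.6), Cd93 (16.7 FPKM, the others 20.7 to 21.2) and Lamp1 (175 FPKM, the others 220 to 227), and replicate 4 for Ccne1 (11.2 FPKM, the others 12.8 to 13.1). In Kit-Sca1- cells, replicate 5 was high for H2-DMb1 (30.2 FPKM, the others 18.96 to 20.2), Pparg (7.53 FPKM, the others 2.37 to 2.65) and Cxcl16 (2.27 FPKM, the others 0.920 to 1.17), and replicate 4 was low for Slfn4 (94.4 FPKM, the others 188 to 235). None of these genes lost its call without that library.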

How the results depend on the processing

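Requiring a log2 difference of 1 or more left 1320 genes changed, 881 higher and 439 lower. Under the other alternatives these counts over all genes stayed within 1.5 times, but some counts within lists did not. Of 70 list counts, 0 to 12 moved by more under each of these settings, 29 with the minimum difference of 1, and 0 to 4 without 1 library. With the same FPKM sum, 9 ribosome biogenesis genes (17 in the report) and 4 self-renewal genes (7) were lower. Under quantile normalization 5 mitotic genes (8) were lower. With a pseudocount of 0.1 FPKM, or with only the 9 libraries compared, 6 erythroid genes (3) were higher. With the title number as a block 5 eosinophil genes (3) were higher. With the sample name prefix as a replicate block 6380 genes were called and with the title number 5841, and among the genes named in the text the blocks changed the call of Hoxa10 alone. Without 1 library, 4611 to 5214 genes were changed, 2268 to 2512 higher and 2343 to 2748 lower. Itgam ran from -2.34 to -1.91, Kit from 4.27 to 4.50 and Ly6a from 2.02 to 2.25. Hoxa10 was also called with a pseudocount of 5 FPKM (0.22, adjusted p = 0.0396). With libraries rescaled to the same FPKM sum, Bmi1, Bcl2, Lyl1, Runx1 and Dot1l were not called (adjusted p = 0.0541 to 0.122). With only the 9 libraries compared, Bmi1, Bcl2, Lyl1 and Fcgr1 were not (0.0515 to 0.108). Runx1 was also not called with no filter, median-of-ratios scaling, quantile normalization or no variance trend (0.0526 to 0.0667), nor Lyl1 under quantile normalization (0.187). Quantile normalization reversed Meis1 (-0.060), Hoxa9 (-0.027) and Mef2c (0.016), none of them called. Without 1 library Meis1 ran from -0.040 to 0.24, Hoxa9 from -0.049 to 0.45 and Mef2c from -0.24 to 0.093. The cause was not tested. Depth limits genes of low FPKM, whose counting error is unknown.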
